A study of Mus musculus with 8 samples.

Results

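The G1 to S genes described here are the D-type cyclins Ccnd1, Ccnd2 and Ccnd3, the E-type cyclins Ccne1 and Ccne2, the kinases Cdk2, Cdk4 and Cdk6, the transcription factor E2f1 and the retinoblastoma gene Rb1. They were taken as every probe whose platform annotation gives 1 of these 10 symbols. 9 of the 10 genes had a named probe, with 17 probes among 25669, and Cdk4 had none and was not analysed here. 15 probes of 8 genes passed the filter, a detection p under 0.05 on every array of 1 group or of both, and were tested, and each of the 15 was detected on all 8 arrays. The cells were primary VSMC, smooth muscle cells of the vessel wall in culture, from male C57Bl6/J mice of 8 weeks. All of them were infected with lentivirus and kept in puromycin for 2 days, and their RNA was taken after 5 days. The 2 control RNA samples carried scramble shRNA (shSCR) and the 2 knockdown samples carried shRNA against Uhrf1 (shUHRF1), and each RNA sample was hybridised to 2 Illumina bead arrays. Uhrf1 encodes a protein that binds hemimethylated DNA and brings the methyltransferase Dnmt1 to it. Uninfected cells are not among the samples, and the labels number the RNA as shSCR#1, shSCR#2, shUHRF1#3 and shUHRF1#4 without saying whether a number stands for a hairpin, a culture or an animal. All p-values therefore measure the spread between these RNA samples, which may be technical.

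A cell in G1 commits to DNA replication when D-type cyclins, bound to Cdk4 or Cdk6, begin to phosphorylate the Rb protein, and when E-type cyclins with Cdk2 complete this. Phosphorylated Rb lets go of E2F factors, which then drive genes of S phase, among them Ccne1, Ccne2 and E2f1 itself. Much of this switch lies in protein turnover, phosphorylation and inhibitor binding, which mRNA levels do not show. In cultured smooth muscle cells, mitogens raise the D-type cyclins, and the loop is studied for its part in vessel wall growth.

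The target of the shRNA was lower in both shUHRF1 samples, with a log2 difference of -2.75 for Uhrf1 (SE 0.23, 2 RNA samples per group, lowest adjusted p of all probes, 0.167 by limma). This value is from 1 probe. The other Uhrf1 probe was detected on 0 arrays of either group and was not tested. The arrays had a median raw signal of 103.4 to 123.3, and 45.1% to 48.2% of probes were detected. The 2 arrays of a control sample deviated from the probe means alike, with r = 0.545 and 0.594 across 10880 tested probes. The 2 arrays of shUHRF1 sample 1 did so at r = 0.235 and those of shUHRF1 sample 2 at r = -0.01, while the first arrays of both shUHRF1 samples agreed at r = 0.364. The arrays of shUHRF1 sample 2 thus stood apart from each other, and the main values are given below for each array. Whether each array is assigned to the RNA sample it came from was not tested, and the sample means and SEs rest on the labelled assignment. Of 10 smooth muscle markers 6 were tested, and Myh11 and Cnn1 were among those that did not pass the filter. The log2 of the summed signal of the 6 was 13.77 and 14.56 in the shSCR samples and 14.79 and 14.65 in the shUHRF1 samples. Acta2 made most of this sum, with its own signal at 13.44 and 14.33 against 14.56 and 14.35. Of the 5 fibroblast markers with a probe 4 were tested, and their sum stood at 8.49 and 7.87 against 8.55 and 9.16. 2 endothelial markers stood at 8.77 and 8.86 against 8.23 and 8.38, and 2 macrophage markers at 8.62 and 9.06 against 8.69 and 8.51. Some of these markers passed the filter through 1 group alone, Kdr and Dpt through shSCR and Scara5 and Aif1 through shUHRF1, and all but Dpt were higher in that group, so the sums carry no test. The endothelial genes Pecam1, Cdh5, Tek and Tie1 and the leukocyte gene Ptprc did not pass the filter. Of the markers with a probe, 3 of 10 for smooth muscle, 3 of 7 for endothelium, 2 of 5 for leukocytes and 0 of 5 for fibroblasts were detected on no array. The part of other cells in the results was not tested.

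None of the G1 to S probes passed limma's threshold, 0 of 15 at an adjusted p under 0.05, and neither did any other probe (0% of 10880 higher and 0% lower, with 832 and 744 at an unadjusted p under 0.05). Other limma fits called at most 3 probes, and 0 of these were G1 to S probes. Cyclin E2 mRNA was the member farthest from the controls, and it alone reached an unadjusted p under 0.05 (1 of 15 lower, where 6.84% of all probes did, and 0 of 15 higher, where 7.65% did). Cdk2, Ccnd1, E2f1 and Ccne1 were also lower in the group means, and Ccnd3, Rb1 and Ccnd2 were higher. In 3 of the 15 probes both shUHRF1 samples lay below both shSCR samples, against 27.6% of all probes, and in 0 above, against 23.3%. In 0 probes were all shUHRF1 arrays below or all above the shSCR arrays, against 8.58% and 7.67% of all probes. By the brightest probe of each gene, both shUHRF1 samples lay below both controls in 2 of 8 genes, against 26.9% of all genes, and above in 0, against 24%. Over the 8 genes the median log2 difference was -0.17, beside -0.01 over all 7502 tested genes. In bulk RNA, fewer cells expressing a gene and less of its RNA per cell cannot be told apart.

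**Figure D1:**
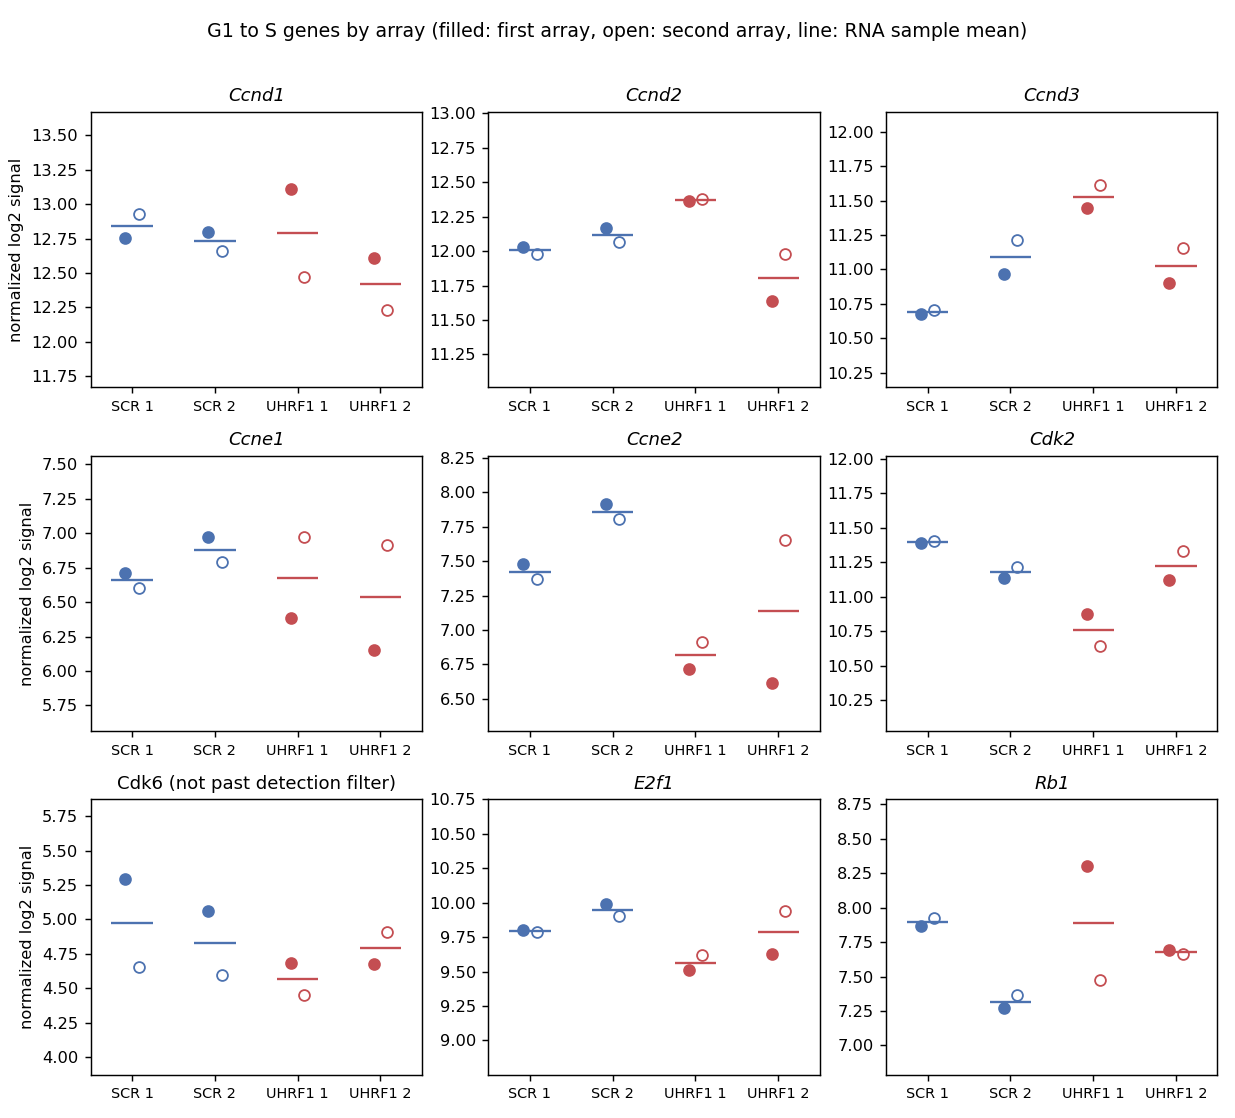
Normalized log2 signal of the brightest probe of each of the 9 genes on each array, by RNA sample (filled points first arrays, open points second arrays, lines RNA sample means, shSCR blue, shUHRF1 red). Each panel spans the same log2 range around its own values, so panels show differences and not levels between genes. In Ccne2, 3 of the 4 shUHRF1 points lie below all shSCR points, and in every panel the groups overlap.

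The D-type cyclins, which sense growth signals, did not share a direction. Ccnd1 encodes cyclin D1. Its brightest probe (ILMN_1221503) read 12.75 and 12.93 in shSCR sample 1, 12.79 and 12.66 in shSCR sample 2, 13.11 and 12.47 in shUHRF1 sample 1, and 12.61 and 12.23 in shUHRF1 sample 2, all as normalized log2 signal. The highest array of the 8 and the lowest were both from shUHRF1 cells. The difference, shUHRF1 minus shSCR, was -0.18 (SE 0.19, 95% interval -0.65 to 0.29, limma adjusted p = 0.663). A further probe (ILMN_2601471) gave -0.20 (SE 0.20, adjusted p = 0.632 by limma).

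The remaining Ccnd1 probe (ILMN_2669793) read 10.43, 10.28, 10.07 and 10.15 on the shSCR arrays, 10.19 and 9.93 in shUHRF1 sample 1, and 9.51 and 8.80 in shUHRF1 sample 2. Sample 2 was low on both of its arrays, and sample 1 had 1 array among the controls and 1 below them. Its log2 difference was -0.62 (SE 0.31, 95% interval -1.38 to 0.13, limma adjusted p = 0.391), and it was -0.17 without shUHRF1 sample 2 and -1.08 without shUHRF1 sample 1. In shUHRF1 sample 2 the Ccnd1 probes stood at -0.37, -0.36 and -1.08 relative to the shSCR mean, so they shared a sign there but not a size. All of them are annotated to the same transcript record.

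Ccnd2, which encodes cyclin D2, has 1 probe. It read 12.03, 11.98, 12.17 and 12.07 on the shSCR arrays, 12.37 and 12.38 in shUHRF1 sample 1, and 11.64 and 11.98 in shUHRF1 sample 2. The shUHRF1 samples lay on opposite sides of the controls, at 0.31 and -0.25 relative to the shSCR mean. The log2 difference was 0.03 (SE 0.23, limma adjusted p = 0.962), with a 95% interval of -0.53 to 0.58.

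Ccnd3, which encodes cyclin D3, was higher in shUHRF1 sample 1. Its brightest probe (ILMN_3131063) read 10.67 and 10.70 in shSCR sample 1, 10.97 and 11.22 in shSCR sample 2, 11.44 and 11.61 in shUHRF1 sample 1, and 10.90 and 11.16 in shUHRF1 sample 2. Sample 1 was above all control arrays, sample 2 overlapped control sample 2, and the controls themselves differed by 0.40. The log2 difference was 0.39 (SE 0.24, limma adjusted p = 0.465). A dimmer probe (ILMN_1246473) gave 0.38 (SE 0.30, adjusted p = 0.561 by limma), with shUHRF1 samples 1 and 2 at 0.73 and 0.03 relative to the shSCR mean. Without shUHRF1 sample 1 the brightest probe stood at 0.14. A further Ccnd3 probe was detected on 1 of the 8 arrays and was not tested.

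For the 3 tested genes with a RefSeq window outside the annotated gene, an E-type cyclin, its kinase and a D-type cyclin, the 250 bases upstream of the start are given to set their E2F-type matches beside their values. 6 of the 10 genes were matched by symbol to a window. The sequences are from RefSeq, build GRCm38.p6, 5′ to 3′ on the gene's strand. Capitals mark matches to TTTNNCGC, a form of the site of E2F factors, or to GGGCGG, a form of the site of Sp1, on either strand. The windows are chr7:38107491-38107740 on the minus strand for Ccne1, chr10:128705052-128705301 on the minus strand for Cdk2, and chr17:47504801-47505050 on the plus strand for Ccnd3.
Ccne1: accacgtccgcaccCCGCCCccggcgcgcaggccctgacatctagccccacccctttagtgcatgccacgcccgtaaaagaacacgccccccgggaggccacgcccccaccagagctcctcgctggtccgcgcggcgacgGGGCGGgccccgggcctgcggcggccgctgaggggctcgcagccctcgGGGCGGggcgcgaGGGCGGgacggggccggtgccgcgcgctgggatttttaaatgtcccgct
Cdk2: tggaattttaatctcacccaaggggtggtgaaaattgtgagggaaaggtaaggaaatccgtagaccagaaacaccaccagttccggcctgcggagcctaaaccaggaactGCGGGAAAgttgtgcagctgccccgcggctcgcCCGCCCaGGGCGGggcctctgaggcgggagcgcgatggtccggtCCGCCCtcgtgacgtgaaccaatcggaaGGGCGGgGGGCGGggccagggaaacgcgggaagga
Ccnd3: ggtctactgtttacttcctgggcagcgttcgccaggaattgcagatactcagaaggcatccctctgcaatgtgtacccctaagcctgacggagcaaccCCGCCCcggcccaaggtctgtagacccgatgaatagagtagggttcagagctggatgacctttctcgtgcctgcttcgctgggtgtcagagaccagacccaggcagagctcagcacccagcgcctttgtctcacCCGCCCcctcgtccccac
The Cdk2 window holds 1 E2F-type match, GCGGGAAA, 140 to 133 bases before the start, and the Ccne1 and Ccnd3 windows hold 0. GGGCGG or its reverse complement occurs 4 times before Ccne1, 5 times before Cdk2 and 2 times in the printed Ccnd3 window. A further Ccnd3 window lies inside the annotated gene and is not printed. Among all 32851 such windows, 4.28% hold an E2F-type match and 32.74% a GGGCGG match. No match overlapped one of the other kind. A match describes letters and not a bound site.

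The E-type cyclins activate Cdk2 at the entry to S phase. Cyclin E2, from Ccne2, read 7.48 and 7.37 in shSCR sample 1, 7.91 and 7.81 in shSCR sample 2, 6.71 and 6.92 in shUHRF1 sample 1, and 6.62 and 7.65 in shUHRF1 sample 2. 3 shUHRF1 arrays were low and the second array of sample 2 lay among the controls, 1.04 above the first array of the same RNA. The log2 difference was -0.67 (SE 0.22, 95% interval -1.20 to -0.13, unadjusted p = 0.0227, adjusted p = 0.299 by limma over all probes). The difference kept its sign in all 20 alternatives, though those that changed only the filter or the block could not alter it. Its limma adjusted p-values ran from 0.163 to 0.744. From the first arrays alone it was -1.03 (limma adjusted p = 0.163), from the second arrays alone -0.30, and with shUHRF1 sample 2 from its second array -0.41, a setting chosen after seeing the data. Without shSCR sample 2 it was -0.45, and in the authors' processed values, whose scale is narrower, it was -0.23.

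Ccne1, the paralogous cyclin E1 gene, read 6.72, 6.60, 6.97 and 6.79 on the shSCR arrays, 6.38 and 6.98 in shUHRF1 sample 1, and 6.15 and 6.92 in shUHRF1 sample 2. The first arrays of both shUHRF1 samples were lowest of all and the second arrays were among the highest. The second array exceeded the first by 0.59 and 0.77 in the shUHRF1 samples and fell short of it by 0.11 and 0.19 in the shSCR samples. The log2 difference was -0.16 (SE 0.18, 95% interval -0.59 to 0.26), at -0.58 from the first arrays alone and 0.25 from the second, so its direction rests on which arrays are read.

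Cdk2, the partner kinase of the E-type cyclins, is the member with most probes, and its 4 probes showed one pattern. It is the member above whose upstream window holds an E2F-type match. The brightest (ILMN_1233064) read 11.39 and 11.41 in shSCR sample 1, 11.13 and 11.22 in shSCR sample 2, 10.88 and 10.64 in shUHRF1 sample 1, and 11.12 and 11.33 in shUHRF1 sample 2. Both arrays of shUHRF1 sample 1 stood below the controls, and sample 2 read close to shSCR sample 2. Relative to the shSCR mean the probes stood between -0.53 and -0.36 in shUHRF1 sample 1 and between -0.08 and 0.06 in shUHRF1 sample 2. The 1 probe annotated to a different Cdk2 transcript record (ILMN_2770759) stood at -0.50 and 0.06. The log2 difference was -0.30 on the brightest probe (SE 0.22, 95% interval -0.82 to 0.23, limma adjusted p = 0.528), and -0.30, -0.22 and -0.19 on the others. Without shUHRF1 sample 1 the brightest probe stood at -0.06.

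Cdk6, which pairs with D-type cyclins, was near background. Its 1 probe was detected on 2 shSCR arrays and 1 shUHRF1 array, with log2 signals from 4.45 to 5.29 where the median of all probes was 4.7, and it was not tested.

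**Figure D2:**
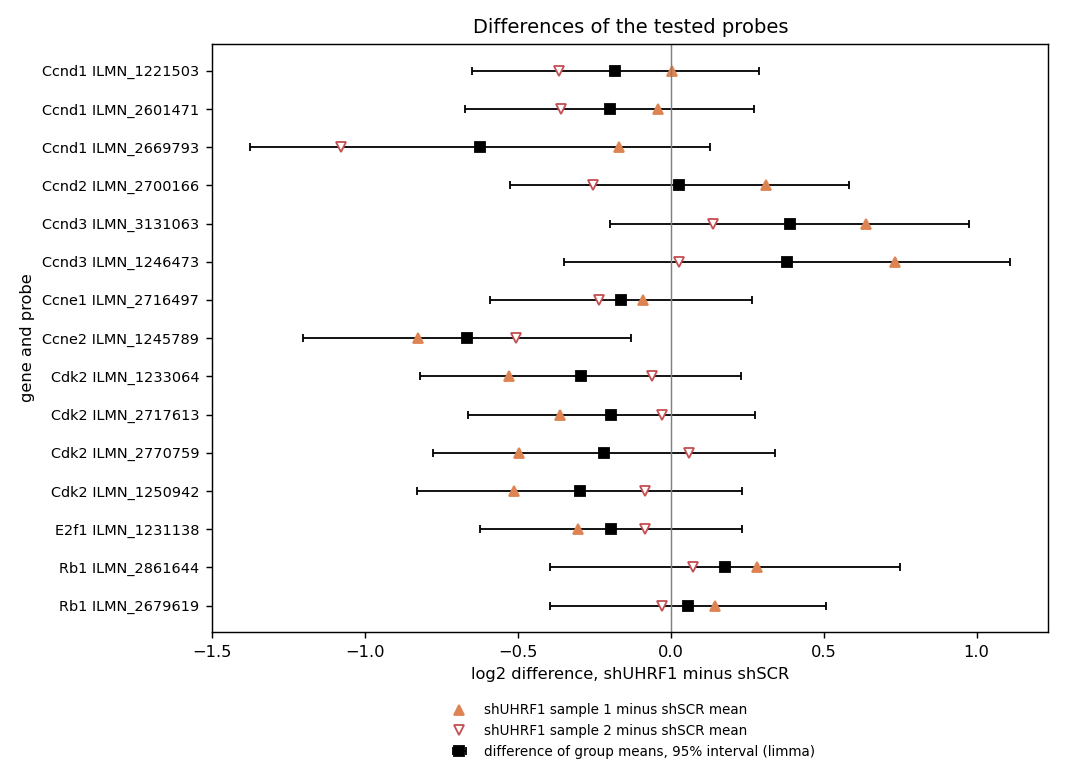
Log2 difference of each of the 15 tested probes, shUHRF1 minus shSCR (squares, with 95% intervals from limma over 2 RNA samples per group), and each shUHRF1 sample minus the shSCR mean (triangles). 14 of the 15 intervals include 0, that of Ccne2 runs from -1.20 to -0.13, and the samples lie farthest apart for the dimmest Ccnd1 probe.

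E2f1, the factor held by Rb in G1, read 9.80 and 9.79 in shSCR sample 1, 9.99 and 9.90 in shSCR sample 2, 9.51 and 9.62 in shUHRF1 sample 1, and 9.63 and 9.94 in shUHRF1 sample 2. 3 shUHRF1 arrays lay below all control arrays, by little, and the second array of sample 2 lay among the control values. The log2 difference was -0.20 (SE 0.18, limma adjusted p = 0.606), and the 95% interval of -0.62 to 0.23 covers folds from 0.649 to 1.17. It was -0.32 from the first arrays alone and -0.07 from the second, and -0.09 without shUHRF1 sample 1. The 3 genes outside the set whose centred profiles lay closest to that of E2f1 over the 8 arrays were Cetn3, Phactr4 and Rpp25l, at a root mean square difference of 0.05 log2 units, where the E2f1 values varied around their own mean by 0.16. For Ccne2 they were Fubp1, Rcc1 and Prodh, at 0.09 to 0.12, where Ccne2 varied by 0.47.

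Rb1, whose protein restrains E2F factors, did not move one way. Its brighter probe (ILMN_2861644) read 7.87 and 7.92 in shSCR sample 1, 7.27 and 7.36 in shSCR sample 2, 8.30 and 7.48 in shUHRF1 sample 1, and 7.69 and 7.67 in shUHRF1 sample 2. The controls differed by 0.58, and the arrays of shUHRF1 sample 1 by 0.82, both more than the group difference of 0.18 (SE 0.24). The dimmer probe gave 0.06 (SE 0.19), and both probes had the opposite sign, at -0.11 and -0.09, without shSCR sample 2.

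**Figure D3:**
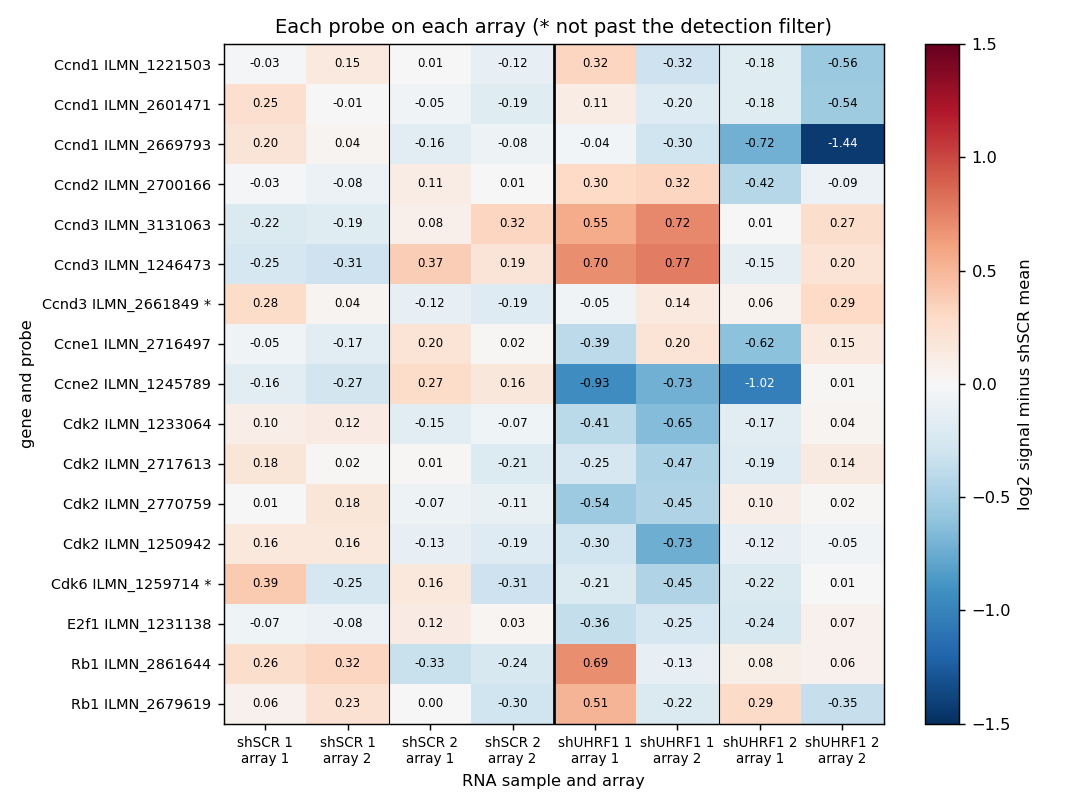
Log2 signal of all 17 probes on all 8 arrays, each as the difference from the mean of the shSCR samples (rows are probes grouped by gene, columns are arrays grouped by RNA sample). The Cdk2 probes are low in shUHRF1 sample 1 alone, the Ccnd1 probes are lowest on the second array of shUHRF1 sample 2, and Ccne2 is low on 3 of the 4 shUHRF1 arrays.

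The other genes of the pathway stood as follows, each by its brightest tested probe. Over all 7502 tested genes 0% passed limma's adjusted threshold in either direction, 6.62% had an unadjusted p under 0.05 in the lower direction and 7.9% in the higher, and in 8.45% all shUHRF1 arrays were below the shSCR arrays and in 8.17% above. Of all these genes 51.55% were lower in the group means. 0 genes of the lists below passed the adjusted threshold. The lists were drawn up with earlier results of these arrays known.

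Genes activated by E2F at S phase entry were lower as a list while E2f1 itself differed by -0.20. 20 of 30 were tested, each detected on all 8 arrays, and 20 of these were lower and 0 higher, with a median of -0.59 and a range of -0.89 to -0.19. At an unadjusted p under 0.05 there were 11, and in 10 the shUHRF1 arrays all lay beneath the controls. Ezh2, a histone methyltransferase gene, read 10.16, 10.13, 10.18 and 10.06 in the controls and 9.31, 8.93, 9.33 and 9.57 after shUHRF1, so the groups did not overlap (log2 difference -0.85, SE 0.19, limma adjusted p = 0.287). Cdc6, which loads the replicative helicase, differed by -0.75 (SE 0.20), and Tyms, which makes thymidylate, by -0.79 (SE 0.21). Taken alone, shUHRF1 sample 1 gave a list median of -0.84 and sample 2 one of -0.33, with 18 of 20 lower, and it was -0.68 with sample 2 from its first array and -0.50 from its second.

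The other E2F factors, their DP partners and the pocket proteins were lower in the 8 tested genes of 11 that were detected on all arrays, with a median of -0.32. With E2f7, described last, 9 of 9 were lower with a median of -0.34. E2f2, an activator E2F like E2f1, read 7.23, 7.06, 7.20 and 7.25 in the controls and 6.47, 5.88, 6.60 and 6.60 after shUHRF1, a difference of -0.79 (SE 0.20, limma adjusted p = 0.287), with -0.92 on its other probe. The groups did not overlap on any array of the brighter E2f2 probe. E2f3, the remaining activator, differed by -0.56 (SE 0.22), with shUHRF1 sample 1 at -0.83 and sample 2 at -0.28, and Tfdp2, a DP partner, by -0.34 (SE 0.16). E2f7, an atypical repressor named after its value was seen, was detected on all shSCR arrays and on 0 shUHRF1 arrays, near background. It read 5.19 and 5.57 in shSCR sample 1, 4.92 and 4.86 in shSCR sample 2, and 4.71, 4.78, 4.71 and 4.65 after shUHRF1. The shSCR group mean was at least 1.26-fold higher (limma adjusted p = 0.391). The shSCR sample means were 5.38 and 4.89, beside an upper bound of 4.80 for the shUHRF1 group, so shSCR sample 2 lay close to that bound. E2f7 passed the filter through the shSCR arrays alone, the group in which it was higher. Without shUHRF1 sample 1 7 of the 9 were lower.

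Regulators of the activity or turnover of G1 cyclins and kinases were lower in 10 and higher in 4 of 14 tested genes, with a median of -0.20. The list mixes regulators of opposite effect. Skp2, the F-box protein that targets the inhibitor p27, differed by -0.76 (SE 0.17, limma adjusted p = 0.287), and by -0.68 and -0.95 on its other probes. It read 8.18, 8.52, 8.57 and 8.42 in the controls, 7.28 and 7.95 in shUHRF1 sample 1, and 7.14 and 8.27 in shUHRF1 sample 2. The second array of shUHRF1 sample 2 lay among the controls. Cdc25a, a phosphatase that activates Cdk2, read 8.66, 8.54, 8.62 and 8.65 in the controls and 7.64, 7.95, 7.68 and 8.41 after shUHRF1, a difference of -0.70 (SE 0.17). Every shUHRF1 array was below every control array for Cdc25a, the second array of sample 2 the least. Cdc37, a chaperone of Cdk4, differed by -0.32 (SE 0.16).

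Inhibitors of cyclin-dependent kinases were higher in 4 and lower in 2 of 6 tested genes, with a median of 0.07. The p15 gene Cdkn2b, whose product inhibits Cdk4 and Cdk6, read 6.31, 6.56, 6.66 and 6.84 in the controls and 6.97, 7.67, 7.23 and 7.47 after shUHRF1, and each shUHRF1 array was above each control array. Its difference was 0.74 in the group means, and 0.73 and 0.76 in the 2 shUHRF1 samples. Cdkn1a, which encodes the Cdk2 inhibitor p21, stood at 0.96 and 0.24 in these samples, with a group difference of 0.60 (SE 0.27). Its shUHRF1 arrays all lay above the control arrays, and its other probes gave group differences of 0.98 and 0.83. Cdkn2c, which encodes p18, stood at -0.74 and 0.24. The probes of Cdkn2c disagreed, with a group difference of -0.25 on the brighter and 0.20 on the other.

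Upstream inducers of D-type cyclins were split, 5 higher and 5 lower of 10 tested, with a median of 0.04. Creb1, a transcription factor gene, read 5.48, 5.90, 5.96 and 5.68 in the controls and 4.82, 5.12, 4.56 and 5.24 after shUHRF1, near background. It was detected on 3 of the 4 shUHRF1 arrays and passed the filter through the shSCR arrays alone, where it was higher, so its difference of -0.82 is given as a description. Without Creb1 the list had 5 higher and 4 lower and a median of 0.11. Fos, a subunit of AP-1, differed by 1.21 (SE 0.45), and Fosl1, a further subunit, by -0.71 (SE 0.30). For Fos the control samples themselves differed, with 7.39 and 7.63 in shSCR sample 1 and 5.98 and 6.39 in sample 2. The lowest shUHRF1 array, at 7.39, lay no higher than shSCR sample 1, and shSCR sample 2 lay below all shUHRF1 arrays.

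Among the cyclins of S phase and mitosis 2 of 6 genes were tested. Cdk1, the mitotic kinase, differed by -0.65 (SE 0.25), with shUHRF1 sample 1 at -0.94 and sample 2 at -0.36 relative to the shSCR mean. Ccnf, the F-box cyclin gene, differed by -0.60, was undetected on 1 shUHRF1 array and passed the filter through the shSCR arrays alone, where it was higher, so this value is a description. Ccna2 and Ccnb2 did not pass the filter and Ccnb1 had no named probe. Cyclins and kinases with roles outside G1 to S were higher in 8 and lower in 6 of 14 tested genes, with a median of 0.09. Ccng2, a cyclin gene tied to growth arrest, differed by 0.56 (SE 0.17), with every shUHRF1 array above every shSCR array. Ccnl1, a cyclin of RNA splicing, differed by -0.55 (SE 0.29) and Cdk19, a kinase of the Mediator complex, by 0.34 (SE 0.20).

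**Figure D4:**
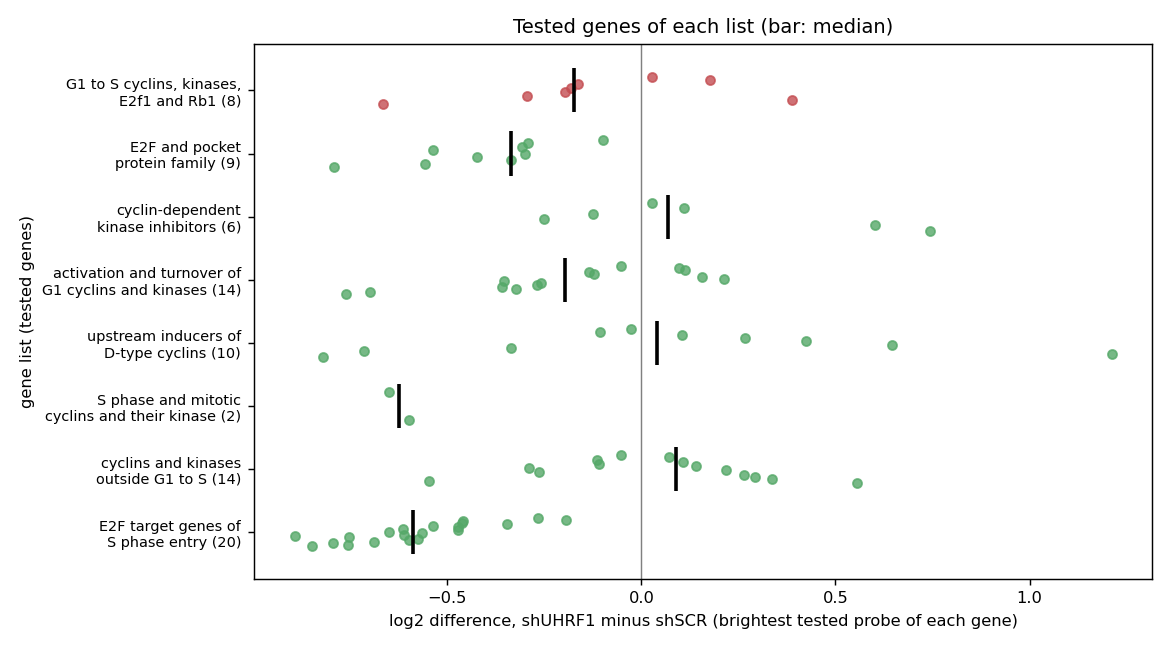
Log2 difference, shUHRF1 minus shSCR, of each tested gene by list (points, brightest tested probe, number tested in parentheses) with the median of the list (bars). The G1 to S genes lie on both sides of 0 with a median of -0.17, and the 20 E2F target genes all lie below 0 with a median of -0.59. Genes held by several lists are drawn in each.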

How the data were processed

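Bead intensity was deposited per probe and array on a linear scale with no normalization between arrays, per the file headers, beside a detection p-value for each, also per the file headers. Per the submitters' processing notes, GenomeStudio 2011.1 and lumi were used. The sources used here do not give the background step. A processed table by the authors, deposited on a log2-like scale with an unstated base and transform and a median of 7.86 on every array, served as an alternative. Of 25671 probes, 2 with unreadable entries were left out. 23950 probes had 1 symbol in the platform annotation, 0 several and 1719 none.

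Signals were corrected by normexp (offset 16, background inferred through detection p-values), quantile-normalized and log2-transformed with neqc of limma 3.58.1 in R 4.3.3. Arrays were averaged by RNA sample, and limma compared 2 shUHRF1 with 2 shSCR samples without a block, with Benjamini-Hochberg adjustment over all 10880 tested probes. A gene is summarised by its brightest tested probe. 1994 genes had several tested probes, of different sign in 478, and in 0 of the 4 such G1 to S genes. An exact permutation test of 2 against 2 cannot go below p = 0.333 (two-sided) and was not used. The number of RNA samples, 2 per group, limits the precision.

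Members and gene lists were chosen with earlier results of these data known. From each further list the 3 tested genes with the lowest unadjusted p are named, and beside E2f1 and Ccne2 the 3 genes with the closest centred profile. Sample and array numbers of the titles were tried as blocks. The difference between samples 1 and 2 correlated at r = -0.15 between groups. Deviations from the group mean, for arrays with the same number in different groups, correlated at -0.339 to 0.452, so like numbers do not pair the samples. The sample number of the shSCR arrays went with the array number of the shUHRF1 arrays instead. Arrays of shSCR sample 1 correlated with the first shUHRF1 arrays at 0.221 to 0.452 and with the second at -0.422 to -0.235. For shSCR sample 2 these were -0.459 to -0.188 and 0.191 to 0.419. Deviations from a group mean cancel within the group, so shSCR sample 2 mirrors sample 1 and is no separate observation. The cause of this pattern was not tested.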

Additional observations from a re-analysis of the deposited data

How the results depend on the processing

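The 15 G1 to S probes gave 300 values under 20 alternatives, 15 planned and 5 chosen after seeing the data. Of these values 281 kept their direction, 19 turned it and 0 passed the adjusted threshold. The cause was not tested. Alternatives that changed only the filter or the block left each difference as it was, so they could not turn a direction. From the first arrays alone Ccnd1 (ILMN_1221503) stood at 0.085 and Ccnd2 at -0.10, and from the second alone Ccne1 stood at 0.25 and Rb1 at -0.071 and -0.25 on its brighter and dimmer probe. Ccnd2 was also -0.0077 with median scaling, -0.0054 with array weights and -0.056 when shUHRF1 sample 2 was read from its first array. With that sample from its second array Ccne1 was 0.028 and the dimmer Rb1 probe -0.10, and with shUHRF1 sample 1 from its second array Rb1 was -0.028 and -0.13. Leaving out each RNA sample gave -0.37 to 0.0040 for Ccnd1 (ILMN_1221503), -0.25 to 0.31 for Ccnd2, -0.50 to 0.0608 for Cdk2 (ILMN_2770759), and -0.11 to 0.47 and -0.0897 to 0.20 for Rb1, the lone sample then being assumed to vary like the others.

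Limma called 0 probes on the averaged arrays without a block. On averaged arrays it called 1 with the sample number as a replicate block and 2 with the crossed number. Over 8 arrays it called 3 with a random block by RNA sample and 2 with the array number as a replicate block. It called 2 with array weights and 1 from the second arrays alone. Uhrf1 was among them each time and no G1 to S probe was, and leaving out an RNA sample gave 0.

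List medians moved by more than the spread between RNA samples as follows. The ranges given without a sample span all samples left out in turn, and some of their values stayed within that spread. For the G1 to S genes the median was -0.0938 in the authors' values, -0.0689 from the second arrays, -0.0451 with shUHRF1 sample 2 from its second array, and -0.16 to -0.0438 without a sample. For E2F and pocket genes it was -0.12 in the authors' values and -0.54 to -0.27 without a sample. For kinase inhibitors it was 0.24 and -0.10 with shUHRF1 sample 2 from its first or second array, and -0.071 to 0.27 without a sample. For activation and turnover it was -0.14 without background correction, -0.0833 in the authors' values, -0.13 with no filter, -0.11 and -0.25 from the first and second arrays, -0.25 and -0.24 with shUHRF1 sample 2 or 1 from its second array, and -0.20 to -0.13 without a sample. For inducers it was -0.20 to 0.16 without a sample. For S phase and mitotic cyclins it was -0.42 without background correction, -0.35 in the authors' values and -0.30 with no filter. For cyclins and kinases outside G1 to S it was 0.0296 in the authors' values, 0.0023 with no filter, 0.0415 and -0.022 from the first and second arrays, 0.029 with shUHRF1 sample 2 from its second array, 0.038 and 0.0208 with shUHRF1 sample 1 from its first or second array, and 0.023 to 0.16 without a sample. The E2F target median stayed within this spread throughout, but its spread was the widest of the lists, at 0.27 log2 units. That median ran from -0.84 to -0.33, so staying within the spread does not make it the steadiest.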

Other observations

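Outside the comparisons, the RefSeq windows of 2 further genes lie inside the annotated gene and were not read as upstream sequence, those of E2f1 and Cdk6. The same holds for a further Ccnd3 window, chr17:47593217-47593466, with 0 E2F-type matches and 1 GGGCGG match. The E2f1 window holds 0 E2F-type matches and 4 GGGCGG matches, and the Cdk6 window holds 1 and 0. The Cdk4 window holds 0 E2F-type matches and 1 GGGCGG match. Among the 24 E2F target genes with a window, 10 hold an E2F-type match in at least 1 of their windows. This counts genes over any of their windows, so the share of single windows given above is not its background. The share of all genes counted in this way was not computed. Genes with profiles closest to the other G1 to S genes over the 8 arrays were Hdhd2 for Ccnd1, Smarcad1 for Ccnd2, Pomgnt2 for Ccnd3, Fhl3 for Ccne1, Tlk1 for Cdk2 and Foxn3 for Rb1, at root mean square differences of 0.04 to 0.10 log2 units.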
